A study of Mus musculus with 16 samples.

Results

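The Rhox genes, a cluster of reproductive homeobox genes on the mouse X chromosome, were followed in embryonic stem cells (ESCs) with and without the DNA methyltransferase Dnmt1. The members were named by symbol: Rhox1, Rhox2a, Rhox4b, Rhox5, Rhox6, Rhox9 and Rhox13. Of these 7 names, 6 had a row among the 26127 genes of the deposited table, and Rhox5 was not analysed here. The table lists 30 Rhox symbols in all, so 24 further Rhox genes are given beside the members by counts and ranges. The cluster spanned 729.3 kb, from 34753799 to 35483143 on chromosome X of the genome build NCBIM37.

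Rhox genes encode homeodomain transcription factors, and they are known from testis, epididymis, ovary and placenta. In embryonic stem cells and most body tissues the cluster is a well-known target of silencing by DNA methylation. Dnmt1 is the enzyme that copies methylation onto the new DNA strand after replication, and Dicer1 encodes the nuclease that cuts double-stranded RNA into microRNAs and small interfering RNAs.

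Total RNA was sequenced after removal of ribosomal RNA, in 16 libraries. The labels give 8 libraries as wildtype (WT), 4 as Dnmt1-/- (Dnmt1 KO) and 4 as Dicer/Dnmt1 -/- (Dicer/Dnmt1 KO), all with the background strain E14. The methods of the study describe a Dnmt1 loxP/loxP parent line, C57BL/6 by strain, from which 2 kinds of double knockout came by CRISPR/Cas9, those with conditional alleles of both genes and those with Dicer deleted throughout and Dnmt1 conditional. The kind used for these libraries is not given. Cre was switched on with tamoxifen (4OHT), and cells grew in serum and LIF with or without feeder cells. The loxP alleles that the WT cells may carry, the time since deletion and the number of clones are not given for these libraries. Each library bears a number and a letter (1A, 1B and so on) with no statement of what they stand for, so p-values measure only the spread between these libraries.

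Libraries held 31.5 to 52.5 M reads, and 3 reads corresponded to 0.0571 to 0.0954 reads per M reads of the library (RPM). Dnmt1 was at 7.06 ± 0.89 log2 RPM in WT (SD, n = 8), 4.40 ± 0.19 for Dnmt1 KO and 4.57 ± 0.07 for Dicer/Dnmt1 KO (n = 4 each). Among WT, libraries 4A and 4B had the lowest Dnmt1, down to 46.9 RPM against a WT median of 178.9 RPM. Library 4B also had the highest Rhox6 and Rhox9 of WT, at 2.62 and 1.55 RPM. Library 4A did not share this, with 1.91 and 0.91 RPM beside WT medians of 1.73 and 1.04 RPM. Dicer1 was at 5.27 ± 0.40, 5.46 ± 0.19 and 3.87 ± 0.16 log2 RPM in the same order. The summed RPM of 8 Y-linked genes was 0.235 to 1.37 in WT. It was 20.3 to 23.2 in Dnmt1 KO and 14.8 to 20.4 in Dicer/Dnmt1 KO. WT thus stood apart from both knockouts in this respect. Whether WT and the knockouts also differ in cell line was not tested. Comparisons with WT cannot tell such a difference apart from the genotype. Clones and time since deletion are not given for the knockouts, so comparisons between them cannot tell these apart from the loss of Dicer1. Xist, the RNA of X inactivation, was at 0.79, 3.24 and 4.01 log2 RPM. Across 451 tested X-linked genes outside the cluster the median log2 fold change against WT was 0.03 for Dnmt1 KO and 0.01 for Dicer/Dnmt1 KO, beside 0.04 and 0.02 on the autosomes.

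Rhox1 lies at the outer end of the cluster (ENSMUSG00000071773, 34753799 to 34762253, minus strand, 5 exons) and Rhox13 at the other (ENSMUSG00000050197, 35474396 to 35483143, plus strand, 3 exons). Their promoter windows are shown because both genes went from almost no reads in WT to clear levels in Dnmt1 KO. That of Rhox4b (ENSMUSG00000071771) is shown as a gene that stayed at 0 or 1 read in every library. Each runs from 250 bases before to 50 after the RefSeq start, on the build GRCm38.p6, 5′ to 3′ on the gene's strand, with CpG pairs in capitals. The windows are chrX:37222209-37222508 (minus) for Rhox1, chrX:38120590-38120889 (plus) for Rhox13 and chrX:37432244-37432543 (plus) for Rhox4b.
Rhox1: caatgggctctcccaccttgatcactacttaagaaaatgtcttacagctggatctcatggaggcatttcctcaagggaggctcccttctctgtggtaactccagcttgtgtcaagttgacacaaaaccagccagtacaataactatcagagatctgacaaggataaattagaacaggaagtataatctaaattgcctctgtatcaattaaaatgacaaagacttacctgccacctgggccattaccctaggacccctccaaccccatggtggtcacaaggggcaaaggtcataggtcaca
Rhox13: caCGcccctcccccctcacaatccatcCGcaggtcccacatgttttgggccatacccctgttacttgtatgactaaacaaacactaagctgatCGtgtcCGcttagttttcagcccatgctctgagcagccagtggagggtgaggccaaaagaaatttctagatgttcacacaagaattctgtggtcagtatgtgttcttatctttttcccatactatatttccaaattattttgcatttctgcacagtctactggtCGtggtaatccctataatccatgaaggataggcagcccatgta
Rhox4b: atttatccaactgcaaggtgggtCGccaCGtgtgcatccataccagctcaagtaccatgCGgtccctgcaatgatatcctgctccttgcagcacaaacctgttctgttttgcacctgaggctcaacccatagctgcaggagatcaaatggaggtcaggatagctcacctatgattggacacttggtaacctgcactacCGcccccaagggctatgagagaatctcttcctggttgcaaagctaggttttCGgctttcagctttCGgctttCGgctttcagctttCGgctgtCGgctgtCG

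The Rhox1 window held 0 CpG pairs, as did 5.43% of 32851 RefSeq promoter windows of this length. Rhox13 held 5, Rhox5 held 5, Rhox2a held 8 and Rhox4b held 10, beside a median of 7 over all windows (quartiles 3 and 20) and 7 over 1223 windows on the X chromosome. The 5 members with an entry therefore had 0 to 10 CpG pairs in 300 bases, all below the upper quartile of promoters. The E-box CACGTG, which reads the same on both strands, was in the Rhox4b window alone among the 5 and in 7.15% of all windows. The motif TCCCGC, searched on both strands, was in 0 of the 5 and in 19.98% of all. Rhox6 and Rhox9 were not among the entries.

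Rhox6 and Rhox9, first known as placenta-specific homeobox genes, carried nearly all the Rhox RNA of these cells. They were higher in both knockouts than in WT, and highest in Dicer/Dnmt1 KO. Rhox6 (ENSMUSG00000006200, 35180087 to 35183034, plus strand, 4 exons) went from 1.80 ± 0.583 RPM in WT to 11.4 ± 1.73 for Dnmt1 KO and 22.5 ± 5.17 for Dicer/Dnmt1 KO (SD, n = 8, 4 and 4). Rhox9 (ENSMUSG00000068048, 35252274 to 35255044, minus strand, 2 exons) followed with 1.02 ± 0.304, 7.04 ± 0.994 and 14.8 ± 2.58 RPM.

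In WT the lowest, median and highest Rhox6 levels were 1.09, 1.73 and 2.62 RPM, from 45 to 100 reads a library. Dnmt1 KO libraries 1A, 1B, 2A and 2B had 13.7, 9.45, 11.1 and 11.6 RPM of Rhox6. Dicer/Dnmt1 KO libraries had 19.1, 17.1, 26.3 and 27.5 RPM in that order. The 3 groups did not overlap, and among the Dicer/Dnmt1 KO libraries those numbered 2 were the higher pair.

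For Rhox9 the WT range was 0.553 to 1.55 RPM with a median of 1.04 RPM, from 26 to 58 reads. Dnmt1 KO libraries 1A, 1B, 2A and 2B had 6.69, 6.52, 6.42 and 8.52 RPM of Rhox9. Dicer/Dnmt1 KO libraries had 13.1, 12.3, 17.9 and 15.96 RPM. Again no group overlapped another, and the libraries numbered 2 were the higher Dicer/Dnmt1 KO pair.

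**Figure D1:**
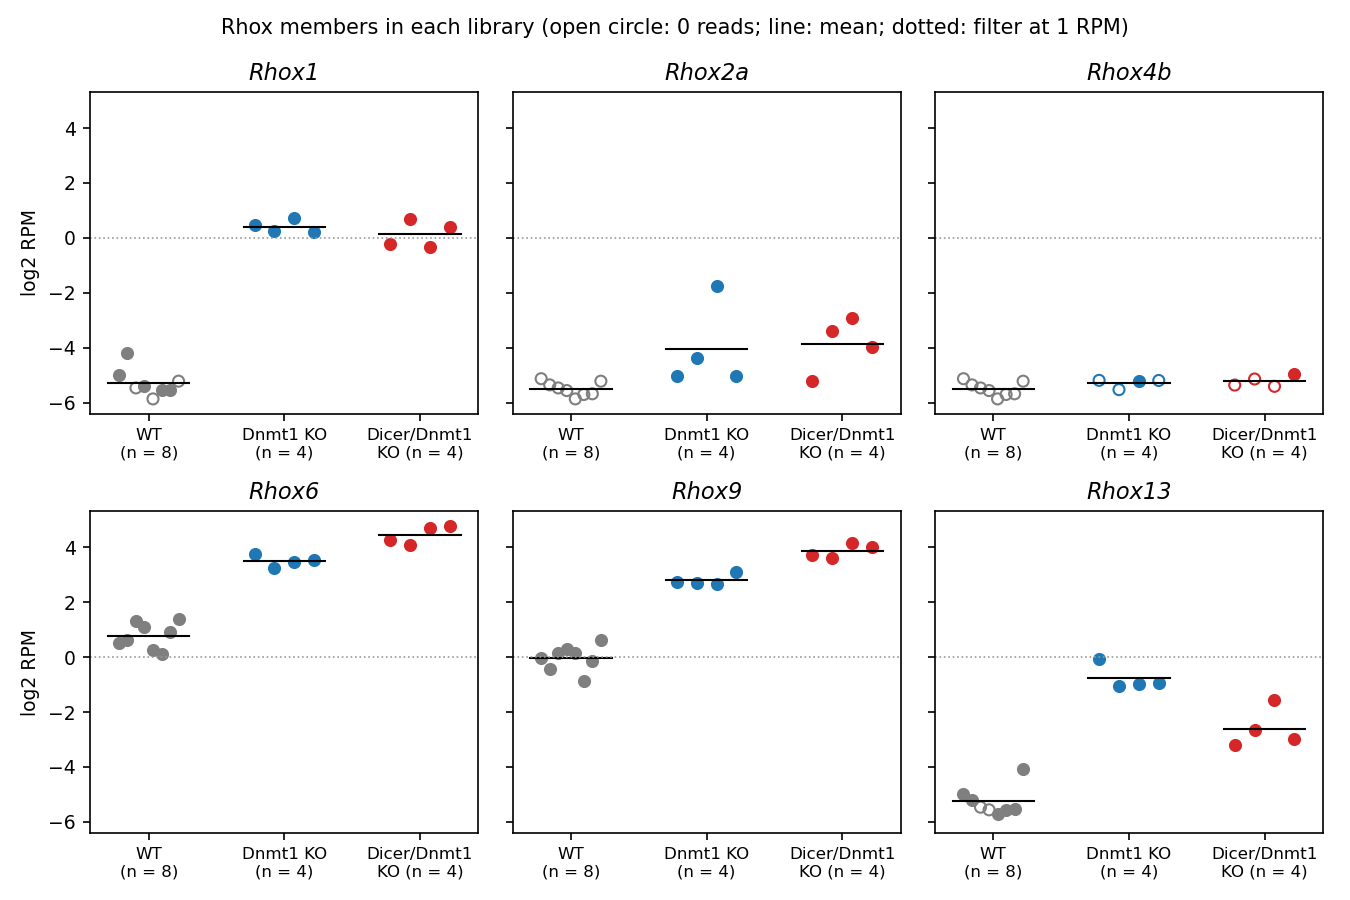
Level of each Rhox gene in each library on the log2 RPM scale, with a point per library, a line at each group's mean and open circles for 0 reads, which the deposited values place at 0.9 read. Rhox6 and Rhox9 climb from WT through Dnmt1 KO to Dicer/Dnmt1 KO, Rhox1 sits near 0 on this scale in both knockouts, and Rhox13 is highest in Dnmt1 KO.

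The fit by limma covered the 12892 genes above 1 RPM in at least 4 libraries, with Benjamini-Hochberg adjustment over all of them and a threshold of 0.05. Rhox1, Rhox6 and Rhox9 entered it. In Dnmt1 KO against WT all 3 were called higher, where 23.5% of all tested genes were. Rhox1 had over 1 RPM in knockout libraries alone, so its entry rested on the groups where it was high, and the count of 3 is not support for the family.

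Rhox6 rose in Dnmt1 KO by a log2 fold change of 2.72 (SE 0.22, limma adjusted p = 4.05e-08), and Rhox9 by 2.84 (SE 0.21, adjusted p = 1.3e-08). The double knockout was also set against WT, and 31.9% of tested genes were called higher there. Rhox6 rose by 3.68 (SE 0.22, limma adjusted p = 3.92e-10) and Rhox9 by 3.90 (SE 0.21, adjusted p = 1.02e-10). For both genes every knockout library lay above every WT library (exact permutation test, two-sided p = 0.004, the smallest that 8 against 4 allows). That test and the limma fit both take A and B libraries of a number as independent. Over the alternative settings limma's adjusted p for Dnmt1 KO was at most 0.000874 for Rhox6 and 0.000786 for Rhox9. For Dicer/Dnmt1 KO it was at most 6.49e-05 and 8.66e-05. Of all tested genes, 14.8% lay above WT without overlap in Dnmt1 KO, and for Dicer/Dnmt1 KO the share was 22.6%. In cell populations, more cells with the RNA and more RNA per cell cannot be told apart.

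Between the knockouts, 16.9% of tested genes were called higher in Dicer/Dnmt1 KO. Rhox6 was higher there by a log2 fold change of 0.96 (95% interval 0.43 to 1.49, limma adjusted p = 0.00713), a 1.94-fold difference. Rhox9 was higher by 1.07 (0.56 to 1.57, adjusted p = 0.00231), or 2.10-fold. All 4 Dicer/Dnmt1 KO libraries exceeded all 4 Dnmt1 KO libraries for both genes (exact permutation test, two-sided p = 0.0286, the smallest that 4 against 4 allows), as did 20.8% of tested genes.

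The calls between the knockouts depended on how the libraries that share a number were counted. The exact permutation test between the knockouts, too, took such libraries as independent. With A and B averaged, which leaves 2 values in each knockout, limma gave an adjusted p of 0.0967 for Rhox6, and with an estimated correlation of 0.667 between A and B it gave an adjusted p of 0.0836 for Rhox9.

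**Figure D2:**
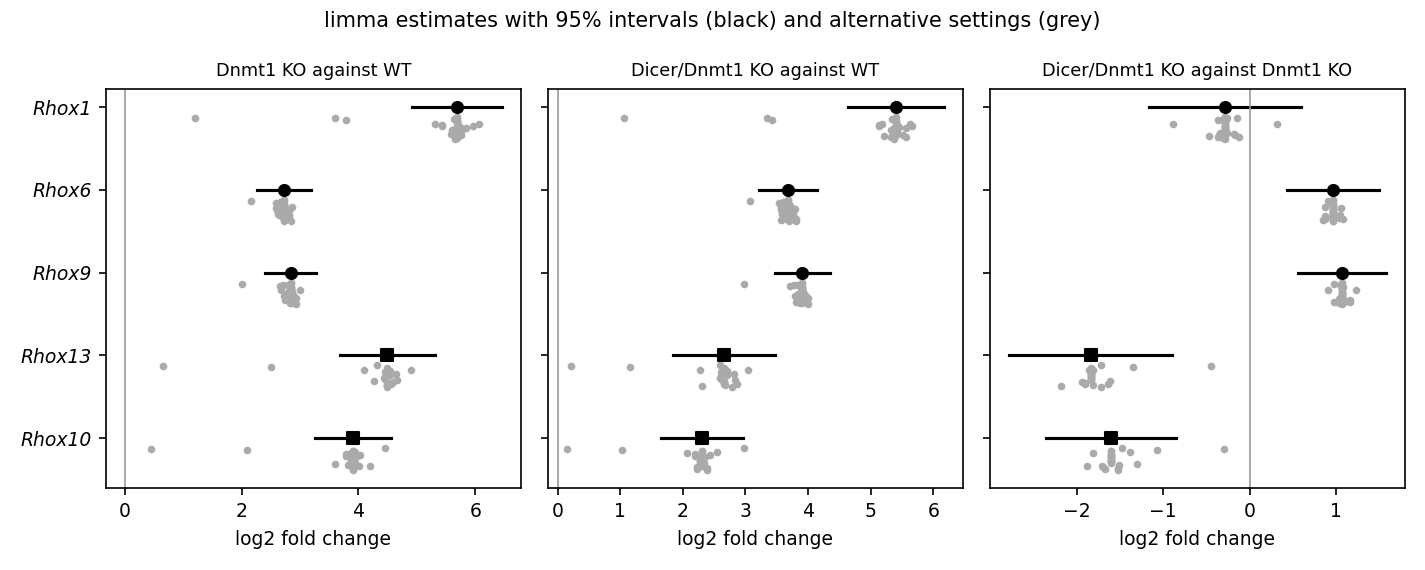
Log2 fold changes from limma in the 3 comparisons, as black points with 95% intervals, and grey points for the alternative settings. Circles are genes of the filtered fit and squares are genes fitted without the filter, and Rhox6 and Rhox9 lie above 0 and Rhox13 and Rhox10 below 0 between the knockouts under every setting drawn.

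Rhox6 and Rhox9 are close relatives. Of the 100-base windows of the longest coding Rhox6 transcript, 17.1% also occur in Rhox9, and 2.68% of the Rhox9 windows occur in Rhox6, so some of their reads may not have been placed on a single gene. Per kb of longest transcript, Rhox6 was at 1.79, 11.3 and 22.3 RPM in WT, Dnmt1 KO and Dicer/Dnmt1 KO, and Rhox9 at 0.422, 2.91 and 6.14. The Rhox6 level per kb was 2.60 to 5.43 times that of Rhox9 in WT, 3.26 to 4.88 times in Dnmt1 KO and 3.33 to 4.12 times in Dicer/Dnmt1 KO. These ranges overlapped, while the levels themselves did not.

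Rhox1 was almost silent in WT and rose to a similar level in both knockouts. It had 0 to 2 reads in each WT library, 6 in all, and a median of 0.0215 RPM. Dnmt1 KO libraries 1A, 1B, 2A and 2B had 1.40, 1.18, 1.65 and 1.15 RPM of Rhox1, from 38 to 61 reads. Dicer/Dnmt1 KO libraries had 0.864, 1.60, 0.784 and 1.30 RPM, from 30 to 51 reads. Both knockouts lay wholly above WT and overlapped each other, and the A libraries were the lower pair within Dicer/Dnmt1 KO.

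Over pooled reads, Rhox1 was 73.8 times as abundant in Dnmt1 KO as in WT, with a 95% interval of 33.3 to 204 that covers counting error only. In Dicer/Dnmt1 KO the ratio was 61.2 (27.5 to 169). The fitted log2 fold changes were 5.69 (SE 0.36, limma adjusted p = 2.64e-09) and 5.41 (SE 0.36, adjusted p = 1.71e-09), which depend on the 0.9 read that stands for 0 and fall to 1.20 and 1.05 with 1 RPM added. Rhox1 passed the filter through knockout libraries alone. In the fit without the filter limma gave adjusted p-values of 4.27e-09 for Dnmt1 KO and 3.52e-09 for Dicer/Dnmt1 KO against WT. Between the knockouts the difference was -0.29 on the log2 scale (95% interval -1.17 to 0.60, limma adjusted p = 0.622). That interval leaves room for a change in either direction. Every 100-base window of Rhox1 was its own among coding transcripts.

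Rhox13, known from male germ cells, showed the opposite order of the knockouts to Rhox6 and Rhox9. It reached 0.613 ± 0.220 RPM in Dnmt1 KO and 0.183 ± 0.107 RPM in Dicer/Dnmt1 KO (SD, n = 4 each). In WT, Rhox13 had 0 to 2 reads a library, 7 in all. Dnmt1 KO libraries 1A, 1B, 2A and 2B had 31, 20, 19 and 17 reads, at 0.943, 0.481, 0.512 and 0.515 RPM. Dicer/Dnmt1 KO libraries had 4, 5, 13 and 4 reads, at 0.108, 0.157, 0.340 and 0.127 RPM. The 3 groups did not overlap. Among all 26127 genes, 9.19% lay wholly above WT in Dnmt1 KO, 13.2% lay above it in Dicer/Dnmt1 KO, and 12.0% lay wholly lower in Dicer/Dnmt1 KO than in Dnmt1 KO.

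Rhox13 was below the filter, so its test came from the fit of all 26127 genes. There 5 of the 6 members with a row were called higher against WT in each knockout, all but Rhox4b, and limma voom on whole reads called the same number, against 15.0% and 19.7% of all genes. By limma 13.6% of genes were called higher in Dnmt1 KO than in WT, 19.2% higher in Dicer/Dnmt1 KO than in WT, and 8.7% lower in Dicer/Dnmt1 KO than in Dnmt1 KO. Rhox13 rose by 4.49 (SE 0.39, limma adjusted p = 1.23e-07) in Dnmt1 KO and by 2.66 (SE 0.39, adjusted p = 2.94e-05) in Dicer/Dnmt1 KO. These fitted changes too depend on the 0.9 read that stands for 0, and were 0.65 and 0.21 with 1 RPM added and 2.51 and 1.16 with 0.1 RPM added, still called. Pooled reads gave ratios to WT of 28.4 (13.2 to 72.7) and 8.85 (3.74 to 24.1).

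Between the knockouts Rhox13 was lower in Dicer/Dnmt1 KO, by a log2 fold change of -1.84 (SE 0.45, limma adjusted p = 0.00775), or by -0.44 with 1 RPM added. The pooled reads stood in a ratio of 0.312 (95% counting interval 0.193 to 0.488). With A and B averaged, limma's adjusted p was 0.0685, and with an estimated correlation it was 0.0681.

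Rhox10, which is not among the named members and was singled out after its values were seen, moved in the same directions. This gene, known from spermatogonial stem cells, lies near Rhox13's end of the cluster (35419652 to 35443251, plus strand, 3 exons). Rhox10 had 2 reads over the 8 WT libraries. Dnmt1 KO libraries 1A, 1B, 2A and 2B had 21, 17, 7 and 9 reads, and Dicer/Dnmt1 KO libraries had 5, 3, 5 and 3. These groups did not overlap either.

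Without the filter, Rhox10 changed by 3.91 in Dnmt1 KO (limma adjusted p = 4.45e-08) and by 2.31 in Dicer/Dnmt1 KO (adjusted p = 1.16e-05). With 1 RPM added these were 0.44 and 0.15, and the call in Dicer/Dnmt1 KO was lost (limma adjusted p = 0.0695). Between the knockouts it differed by -1.60 (limma adjusted p = 0.00412), or by -0.30 with 1 RPM added, and with A and B averaged the adjusted p was 0.0804. Its reads in the knockouts stood in a ratio of 0.309 (95% counting interval 0.165 to 0.548). All 100-base windows of Rhox10 and Rhox13 were their own among coding transcripts.

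Rhox2a (ENSMUSG00000051827, 34784971 to 34789683, plus strand, 4 exons) had 0 reads in all 8 WT libraries. Dnmt1 KO libraries 1A, 1B, 2A and 2B had 1, 2, 11 and 1 reads, and Dicer/Dnmt1 KO libraries had 1, 3, 5 and 2. Every knockout library thus held at least 1 read, and the 2A library of Dnmt1 KO held most of its group's reads. Set against a floor of 3 reads over the WT group, the pooled Rhox2a level of Dnmt1 KO was 11.4-fold higher. Without library 2A it was 4.10-fold higher, and that of Dicer/Dnmt1 KO was 8.74-fold higher. These folds leave out the counting error of the few knockout reads, so they are not lower bounds. Without the filter limma gave an adjusted p of 0.0409 for Dnmt1 KO and of 0.0147 for Dicer/Dnmt1 KO, and without Dnmt1 KO replicate 2A the first was 0.216. Of its 100-base windows, 29.9% were its own, and the rest occur in other Rhox genes.

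Rhox4b (34847001 to 34851786, plus strand) had 0 reads in WT, 1 read in Dnmt1 KO library 2A and 1 read in Dicer/Dnmt1 KO library 2B. A difference was not detectable at this depth, and 17.1% of its 100-base windows were its own. Because alignments with a mapping quality under 20 were discarded, reads from shared windows of the Rhox2, Rhox3 and Rhox4 copies may be missing from every group.

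**Figure D3:**
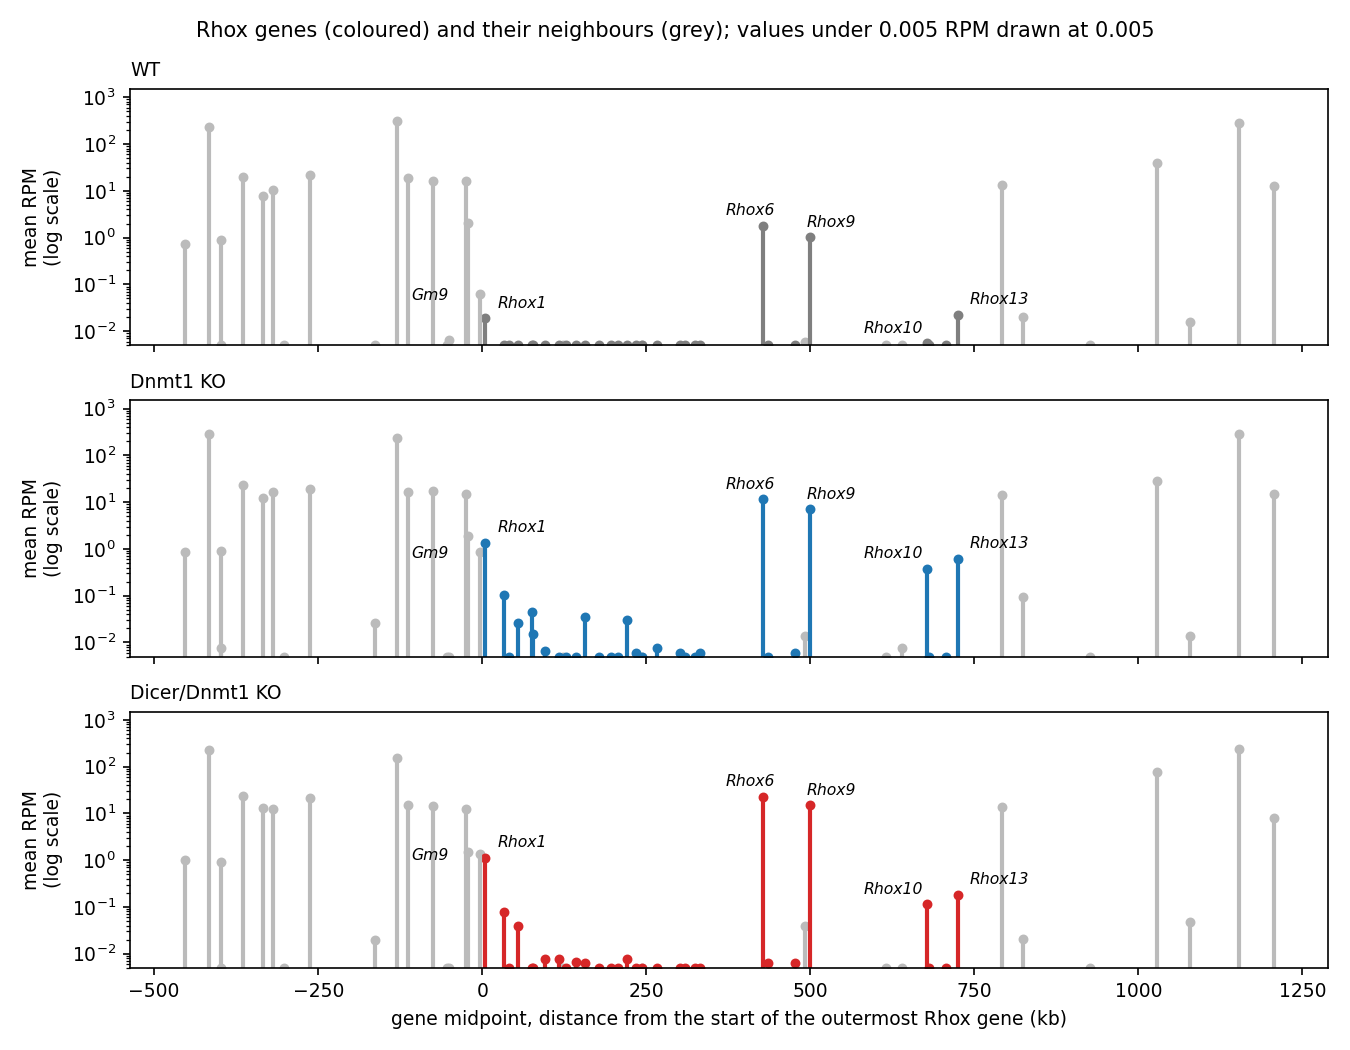
Mean level of each gene in and around the cluster, in RPM on a log axis, against the distance of its midpoint from the start of the outermost Rhox gene in kb. Rhox genes are coloured and neighbours grey. The highest Rhox levels in the knockouts are those of Rhox6 and Rhox9, already at 1.80 and 1.02 RPM in WT. Rhox1, Rhox13 and Rhox10, toward the ends of the cluster, come next. Several copies between Rhox2a and Rhox6 also leave the floor in the knockouts, with means up to 0.0439 RPM.

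None of the other 24 Rhox genes passed the filter. Apart from Rhox10, they had at most 6 reads over any group. Rhox8, Rhox11 and Rhox12, whose windows are all their own, had 0 reads in WT. Rhox8 had 1 read in each knockout group, and Rhox11 and Rhox12 had 0. The repeated copies Rhox2b to Rhox2h, Rhox3a to Rhox3h and Rhox4a to Rhox4g, between Rhox2a and Rhox6, lay mostly at 0 to 1 read over a group.

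The summed RPM of all 30 Rhox genes was 1.70 to 4.23 in WT (median 2.68), 18.3 to 23.5 in Dnmt1 KO and 31.3 to 45.8 in Dicer/Dnmt1 KO. Rhox6 and Rhox9 together made up 96.2% to 99.3% of that sum in WT, 86.3% to 89.9% in Dnmt1 KO and 93.7% to 96.5% in Dicer/Dnmt1 KO. The share held by the other Rhox genes was therefore largest in Dnmt1 KO, without overlap with either other group.

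**Figure D4:**
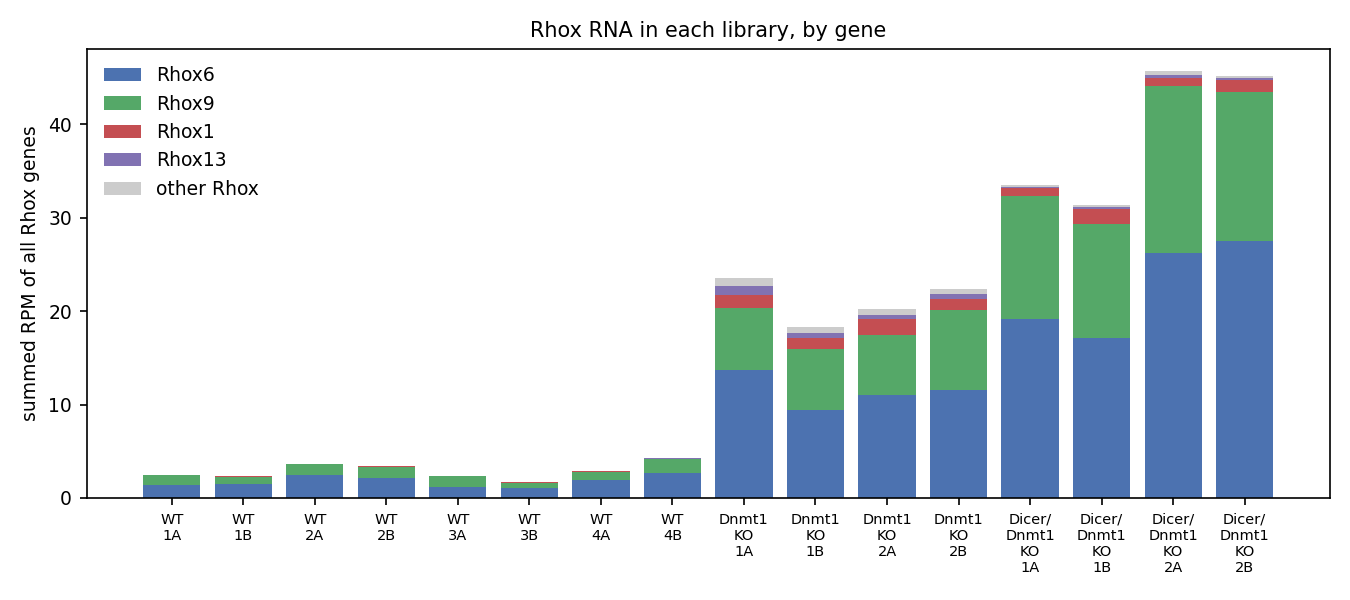
Summed RPM of all Rhox genes in each library, stacked by gene, with the axis from 0. Rhox6 and Rhox9 fill most of every bar, and the Dicer/Dnmt1 KO libraries reach 31.3 to 45.8 RPM against 18.3 to 23.5 RPM in Dnmt1 KO.

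Of 30 other genes within 500 kb of the cluster, 16 were tested. In Dnmt1 KO 4 of them were called higher and 1 lower, where 23.5% of all tested genes were higher and 17.5% lower, and their median log2 fold change was 0.10. Gm9, the gene next to Rhox1 (34748497 to 34751036), rose by 3.87 in Dnmt1 KO (limma adjusted p = 1.86e-05) and by 4.63 in Dicer/Dnmt1 KO (adjusted p = 1.08e-06). It had 0 to 7 reads in WT, 15 to 41 in Dnmt1 KO and 36 to 55 in Dicer/Dnmt1 KO. WT did not overlap the knockouts. Gm9 was above 1 RPM in knockout libraries alone, so it was tested only through the groups where it was high. Its fitted changes depend on the 0.9 read that stands for 0. Ube2a, Nkrf and C330007P06Rik rose by 0.67, 0.67 and 0.29 in Dnmt1 KO, and Lamp2, a lysosomal membrane protein gene at the other flank, changed by -0.44. In Dicer/Dnmt1 KO 5 of the 16 were called higher, among them Lamp2 at 0.99, and 5 lower, where 31.9% of all tested genes were higher and 30.1% lower. Both counts are near these shares. Between the knockouts Gm9 differed by 0.75 (95% interval -0.53 to 2.04, limma adjusted p = 0.353).

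Other genes known to be held down by promoter methylation in cells outside the germline moved in a mixed way. Of 13 listed germline genes 11 were tested. In Dnmt1 KO 8 were called higher and 2 lower, against 23.5% and 17.5% of all tested genes. Their median log2 fold change was 1.69 beside 0.04 over all tested genes. Sycp1, which builds the synaptonemal complex, rose by 2.72, Taf7l by 2.46 and Hormad1, a meiotic chromosome axis protein, by 2.35, while Sycp3 changed by -1.79. In Dicer/Dnmt1 KO 5 were called higher and 4 lower, against 31.9% and 30.1%, with a median of 0.93 beside 0.02. These counts lie near those shares. Between the knockouts 1 was called higher and 8 lower, against 16.9% and 19.4% of all tested genes, with a median of -0.82 beside -0.01. Hormad1 was the higher 1, at 0.48 (limma adjusted p = 0.0495), and Sycp1 differed by -1.75.

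Among 9 genes of the methylation machinery, Dnmt1 included, 6 rose in Dnmt1 KO, where 23.5% of all tested genes did, among them the cofactor Dnmt3l by 1.16 and the de novo enzyme Dnmt3b by 0.67. In Dicer/Dnmt1 KO 3 of the 9 were called higher (Dnmt3a, Tet1 and Tet3) and 2 lower (Dnmt1 and Hells), counts near the 31.9% and 30.1% of all tested genes. Between the knockouts Dnmt3l differed by -1.34 and Dnmt3b by -0.99. Here 4 of 9 were called lower and Tet2 higher, against 19.4% and 16.9% of all tested genes.

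The 3 tested genes outside the family whose log2 RPM followed Rhox6 most closely over the 16 libraries were Ctnnal1 (Pearson's r = 0.988), Lgals3 (0.988) and F8 (0.983). For Rhox9 they were Ctnnal1 (0.984), C77370 (0.983) and Hormad1 (0.981), and for Rhox1 Trank1 (0.989), Efhc2 (0.985) and Rian (0.985). These values describe libraries that share 3 groups, and the likeness is mostly that of group means.

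Markers of other cell types moved with the groups, and their part in the Rhox levels was not tested. Of all tested genes, 23.5% were called higher and 17.5% lower in Dnmt1 KO, and 31.9% and 30.1% in Dicer/Dnmt1 KO. ESC markers summed to 2023 to 3389 RPM in WT, 1855 to 2483 in Dnmt1 KO and 2067 to 2374 in Dicer/Dnmt1 KO. Of these 10 genes, 0 were called higher and 3 lower in Dnmt1 KO, and 1 higher and 2 lower in Dicer/Dnmt1 KO. Primitive endoderm markers summed to 12.1 to 21.6, 41.6 to 56.0 and 20.8 to 28.4 RPM, with 7 of 7 called higher in Dnmt1 KO and 4 of 7 in Dicer/Dnmt1 KO. Trophoblast markers, of the lineage in which Rhox6 and Rhox9 are known, summed to 10.2 to 14.1, 15.4 to 20.005 and 18.8 to 20.6 RPM, with 3 of 5 tested called higher in each knockout and the placental genes Tpbpa and Prl3d1 at 0 reads in every library.

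Sertoli cell markers summed to 13.5 to 15.9 RPM in WT, 18.7 to 23.5 in Dnmt1 KO and 19.1 to 21.5 in Dicer/Dnmt1 KO, with Fshr at 0 reads throughout. Germ cell markers, all of which are also on the germline list, summed to 24.0 to 41.0, 52.9 to 56.0 and 26.4 to 32.1 RPM. They did not move together. In Dnmt1 KO 4 of the 6 were called higher and 1 lower, and in Dicer/Dnmt1 KO 3 higher and 3 lower. Feeder fibroblast markers summed to 31.7 to 57.4, 68.3 to 85.7 and 70.6 to 127 RPM. In Dnmt1 KO 4 of 6 tested were called higher, against 23.5% of all tested genes. In Dicer/Dnmt1 KO 5 of 6 were, against 31.9%. Of these lists, primitive endoderm and germ cell had their highest sums in Dnmt1 KO, without overlap with the other groups. Rhox13, and Rhox10, which was singled out after its values were seen, were also highest there without overlap. How many of all genes had this order was not counted, and a link with these lists was not tested.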

How the data were processed

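Libraries were stranded, and both ends of a fragment were sequenced to 100 bases. Reads were trimmed by the authors with Trim Galore (0.3.5 in the submitters' processing notes), aligned to NCBIM37 with TopHat2 (2.0.11), kept at a mapping quality of at least 20 and quantified per gene in SeqMonk. The deposited values are log2 RPM. A gene with 0 reads is written as 0.9 read. All other values up to 1000 reads came out within 0.01 read of a whole number when set back to counts. The table's 35 further value columns belong to other samples and were not used. DESeq2 and an intensity difference test were the authors' own tests.

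Here limma 3.58.1 (R 4.3.3) was fitted to log2 RPM over 16 libraries with 3 group means and an intensity trend, for genes above 0 log2 RPM in at least 4 libraries. Genes below the filter were tested in a fit without it. Exact permutation tests (scipy 1.17.1) compared single genes, and limma was checked on simulated data. Symbols were matched to GENCODE M1, and promoter sequences come from RefSeq (GRCm38.p6). Transcript lengths are those of the longest annotated transcript. Alternatives covered filters, pseudocounts, scaling, variance model, groups in the fit, libraries left out, WT subsets and the handling of A and B. The named genes are the members, the tested flanking genes, the targeted genes and the genes most like the 3 most abundant members. The members and lists were chosen with earlier results of these data known.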

Additional observations from a re-analysis of the deposited data

Results flagged for a closer look

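A library far from the rest of its group was looked for in 16 groups of 4 or 8 libraries, and 5 had one. In 2 of these, both of Rhox4b, a single read in the group fixes the gap. Of the other 14 groups 3 had one, where chance gives about 1 in 20 for normally spread values. Some of the 14 held only a few reads a library, and that rate does not apply to them. Rhox9 was at 8.52 RPM in Dnmt1 KO library 2B (281 reads), with the other 3 at 6.42 to 6.69 RPM. Rhox13 was at 0.943 RPM in Dnmt1 KO library 1A (31 reads), with the others at 0.481 to 0.515 RPM. Rhox2a was at 0.297 RPM in Dnmt1 KO library 2A (11 reads), with the others at 0.0303 to 0.0481 RPM. Rhox4b had its only reads in Dnmt1 KO library 2A (0.027 RPM, 1 read) and in Dicer/Dnmt1 KO library 2B (0.0318 RPM, 1 read).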

How the results depend on the processing

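Of the members with a row, 3 were called higher against WT in each knockout, 2 with the stricter filter, under which Rhox1 was not tested, and 5 without the filter, by limma and by limma voom on whole reads, the latter added after seeing the data. Between the knockouts 2 were called, 3 without the filter by either tool, Rhox13 being the one added, 1 with A and B averaged, 1 with an estimated correlation, 1 with letter A libraries alone and 0 with letter B libraries alone (limma). With the letter B libraries alone Rhox1 changed sign between the knockouts, to 0.31 (adjusted p = 0.818). Leaving out each library in turn left the counts at 3, 3 and 2. Over all settings the share of genes called in either direction ran from 12.5% to 50.7% in Dnmt1 KO against WT. It ran from 31.0% to 68.8% in Dicer/Dnmt1 KO against WT and from 5.17% to 51.9% between the knockouts. All calls of Rhox6 and Rhox9 against WT held in 34 alternatives each, a fit without WT number 4 among them. Every fit without the filter, other than the unaltered one, was added after seeing the data. In those fits Rhox2a lost its call in 16 of 27 alternatives for Dnmt1 KO and in 7 of 27 for Dicer/Dnmt1 KO. Between the knockouts Rhox2a, not called, changed sign to -0.024 with 1 RPM added, -0.025 with 0.1 RPM added, -0.68 with letter A alone and -0.16 to 0.94 with a library left out. Rhox13 and Rhox10 kept their sign between the knockouts, and lost the call in 4 and 3 of 27. With 1 RPM added Rhox10 also lost its call for Dicer/Dnmt1 KO against WT (limma adjusted p = 0.0695). The cause was not tested.

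Libraries of the same number and letter in different groups had correlations of their deviations from -0.418 to 0.372. Libraries of unlike number were not set beside them, so whether the numbers pair the samples was not settled. With a replicate block Rhox6 differed between the knockouts by 0.96 (limma adjusted p = 6.12e-05) and Rhox9 by 1.07 (adjusted p = 0.00031). The counts of 3, 3 and 2 members called did not move, while Rhox2a without the filter lost both calls against WT (adjusted p = 0.109 and 0.0576).

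At 31.5 to 52.5 M reads, Rhox members at a few reads a library give folds with wide counting intervals.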
